A study of Mus musculus with 40 samples.

Results

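The Fc receptors for IgG and their partners were followed by 6 genes, chosen by symbol from the 54087 genes of the count table and not by any measured value: Fcgr1, Fcgr2b, Fcgr3, Fcgr4, Fcer1g and Fcgrt. Bulk RNA was sequenced from CT26 tumors, a BALB/c colon carcinoma line, grown under the skin of BALB/c mice that were 6 to 12 weeks old when 1000000 cells were injected. All mice received mAbs in the peritoneum on days 6, 9 and 12, and tumors were taken on day 13. There were 8 groups of 5 mice, 40 in all. The isotype control group received motavizumab as mouse IgG2a. In the study's binding assay, the WT mouse IgG2a form of motavizumab bound Fcγ receptors I, II, III and IV. The other groups without anti-PD-1 FcS received anti-GARP:TGF-β1 WT (clone 58A2 with an active Fc, which binds Fcγ receptors I, II and IV but not III in the study's binding assay), anti-GARP:TGF-β1 FcD (the same clone with an Fc changed so that it binds no Fcγ receptor) or anti-TGF-β (clone 1D11, against all TGF-β isoforms). The last 4 groups received anti-PD-1 FcS, an Fc-silent mouse IgG2a, alone or with 1 of those 3 mAbs. All 40 tumors thus grew in mice given an antibody, and no group went without one. CT26 is a single transplanted line, so the tumors share 1 origin of malignant cells.

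IgG bound to a target is read by Fcγ receptors on macrophages, monocytes, neutrophils, NK cells and B cells. The mouse activating receptors Fcgr1 (high affinity), Fcgr3 and Fcgr4 (which binds IgG2a and IgG2b) signal through the common γ chain encoded by Fcer1g, whose tyrosine motif recruits Syk. Fcgr2b carries an inhibitory motif that recruits the phosphatase Inpp5d, and it is the sole Fcγ receptor of B cells. Fcgrt encodes the heavy chain of the neonatal receptor FcRn, which pairs with B2m and carries IgG away from lysosomes. Fcgr1 is a classical target of interferon-γ in myeloid cells.

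In GRCm38 with the GENCODE vM21 annotation, 4 of the genes lie on chromosome 1: Fcgr2b (ENSMUSG00000026656) at chr1:170958617-170976547 on the minus strand, Fcgr4 (ENSMUSG00000059089) at chr1:171018920-171029761 on the plus strand, Fcgr3 (ENSMUSG00000059498) at chr1:171051174-171064935 on the minus strand, and Fcer1g (ENSMUSG00000058715) at chr1:171229572-171234365 on the minus strand. Fcgr1 (ENSMUSG00000015947) lies at chr3:96282909-96293969 and Fcgrt (ENSMUSG00000003420) at chr7:45092990-45103851, both on the minus strand. Reads are 100 bases long, and stretches of that length were compared between transcripts. Of the stretches of Fcgr3, 2.54% (44 of 1733) also occur in Fcgr2b, and 1.4% of those of Fcgr2b (82 of 5843) occur in another gene, so a small share of their reads may map to more than 1 gene. No such stretch of Fcgr1, Fcgr4, Fcer1g or Fcgrt is shared with another gene.

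Upstream sequences are shown for Fcgr1 and Fcgr4, in which a search for interferon elements found a match, and for Fcer1g, in which it found none. They are the 250 bases before the RefSeq start site (GRCm38.p6), written in the direction of transcription. Capitals mark matches to TTCNNNGAA (the interferon-γ activated site), to a pair of GAAA with any 2 bases between them (the core of the interferon-stimulated response element) or to GAGGAA (a core bound by the myeloid factor PU.1), searched on both strands.
Fcgr1 at chr3:96293970-96294219, minus strand: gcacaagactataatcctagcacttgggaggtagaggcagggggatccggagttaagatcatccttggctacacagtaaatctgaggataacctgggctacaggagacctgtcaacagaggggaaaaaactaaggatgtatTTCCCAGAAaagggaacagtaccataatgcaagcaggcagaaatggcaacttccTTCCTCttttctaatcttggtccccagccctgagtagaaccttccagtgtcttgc
Fcgr4 at chr1:171018676-171018925, plus strand: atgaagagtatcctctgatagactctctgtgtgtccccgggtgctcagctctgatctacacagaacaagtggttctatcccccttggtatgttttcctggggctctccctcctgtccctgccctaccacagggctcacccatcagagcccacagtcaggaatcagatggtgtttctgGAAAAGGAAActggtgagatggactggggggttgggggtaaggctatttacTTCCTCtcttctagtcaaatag
Fcer1g at chr1:171234350-171234599, minus strand: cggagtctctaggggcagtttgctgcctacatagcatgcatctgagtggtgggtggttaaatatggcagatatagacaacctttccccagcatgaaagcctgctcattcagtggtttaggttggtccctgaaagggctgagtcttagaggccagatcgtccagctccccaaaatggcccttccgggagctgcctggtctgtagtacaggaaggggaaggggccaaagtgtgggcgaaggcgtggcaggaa
The TTCNNNGAA match of Fcgr1 begins 109 bases before its start site, and the paired GAAA match of Fcgr4 begins 73 bases before its own. GAGGAA is matched 55 bases before the start of Fcgr1, 22 before that of Fcgr4 and 6 before the first of the 2 start sites listed for Fcgr3, each time on the opposite strand as TTCCTC. Fcgr2b, Fcer1g and Fcgrt held none of the 3 patterns in this window. Among 27025 promoters of the same length, 7.18% held TTCNNNGAA, 3.04% held the paired GAAA and 23.1% held GAGGAA. These matches describe letters and were not tested as binding sites.

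The total count per tumor ran from 11931730 to 20680548 (median 14030511), and all 6 genes were among the 14760 that passed the filter on low counts, with at least 172 counts in every mouse. Levels are counts per 1000000 counts (CPM) after TMM scaling. Libraries 41 to 60 and 61 to 80 differ in the female transcript Xist (at most 0.428 CPM against at least 62.7 CPM) and in the Y-linked genes Ddx3y, Uty, Kdm5d and Eif2s3y (at least 2.27 CPM in each of the first against at most 0.0731 CPM in the second). The labels do not give the sex of the mice. Each group has 2 or 3 mice in each of these library parts, so the spread within a group includes any difference between them, and whatever else differed between the parts cannot be told apart from it. The defining myeloid genes Csf1r (88.3 to 735 CPM) and Adgre1 (35.5 to 925 CPM) and the carcinoma gene Krt20 (35.0 to 179 CPM) were present in every tumor. Of the neutrophil markers, Ly6g was at 0 in 24 tumors while Csf3r (at least 8.77 CPM) and S100a9 (at least 0.831 CPM) were counted in every tumor. Of the NK cell markers, Klra8 was at 0 in 38 while Ncr1 (at least 3.85 CPM) and Gzma (at least 9.23 CPM) were counted in every tumor. The epithelial gene Vil1 was at 0 in 16 tumors. In bulk RNA, fewer cells of a type and less RNA per cell cannot be told apart.

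In tumors of the isotype control group, Fcer1g had the highest level per kilobase of exon, at 165 ± 26 CPM per kilobase (SD, n = 5). Fcgr4 followed with 81.1 ± 15.6 and Fcgr3 with 73.9 ± 12.9, whose ranges overlapped (62.7 to 97.2 and 58.5 to 86.8). Fcgrt (38.6 ± 6.10), Fcgr1 (38.2 ± 2.92) and the inhibitory Fcgr2b (36.7 ± 8.18) formed a lower set within one another's spread. Over the 40 mice, Fcer1g ranked first in all 40, Fcgr4 second in 31, and Fcgr3 held rank 2 or 3 in all 40. Fcgr4 was in the last place in 2 mice. These ranks rest on levels divided by the bases of all annotated exons, 5790 for Fcgr2b and 1256 for Fcgr4. The lengths of the transcripts in use were not measured. Before that division, Fcgr2b was the highest of the 6 genes in isotype controls, at 212 ± 47.4 CPM.

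The 6 genes also differed in how far single tumors spread. The fold between the highest and the lowest of the 40 mice was 47.5 for Fcgr4, 9.64 for Fcgr1, 7.39 for Fcer1g, 6.04 for Fcgr3, 4.76 for Fcgrt and 3.72 for Fcgr2b. Between mice of the same group, the biological coefficient of variation in edgeR was 0.520 for Fcgr4, 0.340 for both Fcgr1 and Fcer1g, 0.289 for Fcgr3, 0.287 for Fcgrt and 0.240 for Fcgr2b, against a median of 0.166 over all genes tested. All 6 genes were thus more variable between mice than the typical gene, and the activating receptors more than the inhibitory one.

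**Figure D1:**
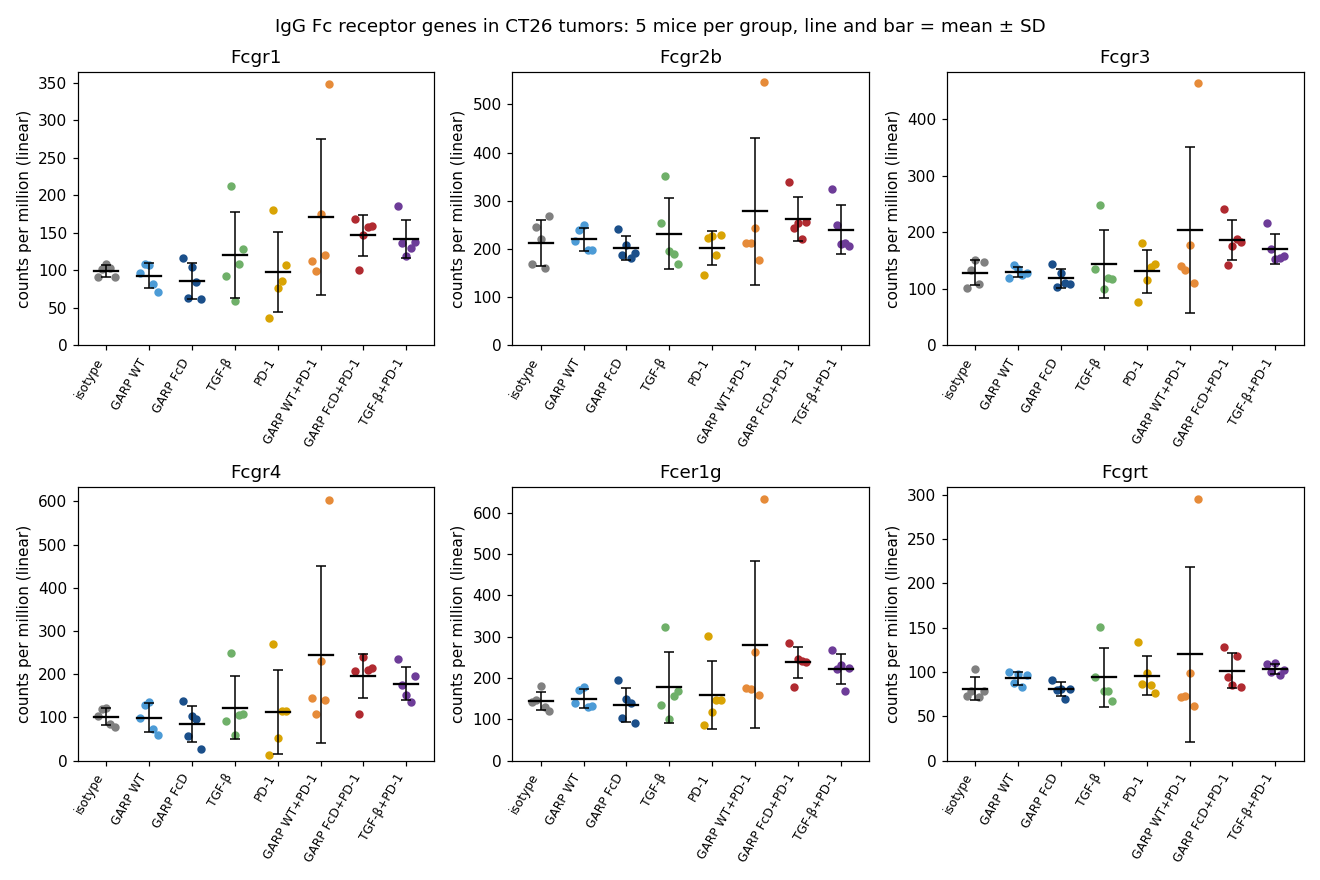
Level of each gene (CPM, linear axis from 0) in every tumor, with 5 mice per group, a line for the mean and a bar for the SD; GARP stands for anti-GARP:TGF-β1, and TGF-β and PD-1 for anti-TGF-β and anti-PD-1 FcS. In the group given anti-PD-1 FcS with anti-GARP:TGF-β1 WT, 1 mouse lies far above the others in each gene (603 CPM for Fcgr4), and the 5 mice given anti-TGF-β + anti-PD-1 FcS lie between 135 and 235 CPM for Fcgr4, above all isotype control mice.

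Each mAb given alone was compared with the isotype control, which asks whether blocking GARP:TGF-β1, TGF-β or PD-1 alone moved the receptor genes. Differences over the 6 genes and 4 groups ran from -0.27 for Fcgr4 with anti-GARP:TGF-β1 FcD to 0.30 for Fcer1g with anti-TGF-β, as log2 fold changes. By edgeR's quasi-likelihood test none of the 6 reached an adjusted p under 0.05, and 0% of all genes did with each of these mAbs. None had an unadjusted p under 0.05 either, where 143 of all genes did with anti-GARP:TGF-β1 WT, 70 with FcD, 342 with anti-TGF-β and 141 with anti-PD-1 FcS. DESeq2 called 1, 0, 1 and 1 of all genes, and none of the 6. The median log2 fold change of the 6 genes was 0.04 with anti-GARP:TGF-β1 WT, -0.10 with FcD, 0.24 with anti-TGF-β and 0.09 with anti-PD-1 FcS, where the median over all genes tested was 0.01, -0.0017, 0.01 and 0.0074. The values with anti-TGF-β rest on its replicate 2, without which all 6 genes were between -0.16 and -0.02. The 95% confidence intervals were wide for Fcgr4, from -1.25 to 0.72 with FcD and from -0.84 to 1.13 with anti-PD-1 FcS, so that changes of about that size were not detectable with 5 mice a group.

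Single tumors show what lies behind these intervals. In isotype control mice, Fcgr4 was at 104, 119, 122, 85.0 and 78.7 CPM in replicates 1 to 5. With anti-PD-1 FcS alone it was at 12.7, 269, 52.1, 115 and 114 CPM. With anti-TGF-β alone it was at 91.4, 248, 59.4, 106 and 107 CPM. Replicate 1 with anti-PD-1 FcS held the lowest level of all 40 tumors, replicate 2 of both groups stood above every control mouse, and both groups overlapped the controls. Fcgr4 was at 99.5, 129, 136, 73.5 and 58.7 CPM with anti-GARP:TGF-β1 WT, and at 138, 58.0, 104, 96.5 and 27.6 CPM with FcD. These groups reached both above and below the controls.

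The tumors with the lowest and the highest Fcgr4 level among those given anti-PD-1 FcS alone also differed in Ptprc. Replicate 1 had the lowest Ptprc (CD45, the leukocyte marker) of all mice, at 59.9 CPM, and replicate 2 the third highest, at 286 CPM. Replicate 2 with anti-TGF-β alone had the second highest, at 371 CPM. The part of leukocyte content in the receptor levels of these mice was not tested.

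With anti-PD-1 FcS combined with a second mAb, all 6 genes were higher than in the isotype control in each of the 3 combinations, by fold changes from 1.13 to 2.41, and none passed an adjusted p of 0.05. Fcgr4 had the largest fold change in each, and Fcgr2b the smallest. In the combination with anti-GARP:TGF-β1 WT, the log2 fold changes were 1.27 ± 0.49 (SE) for Fcgr4, 0.96 ± 0.31 for Fcer1g, 0.79 ± 0.31 for Fcgr1, 0.67 ± 0.27 for Fcgr3, 0.57 ± 0.26 for Fcgrt and 0.39 ± 0.22 for Fcgr2b. The adjusted p in edgeR was lowest for Fcer1g (0.159) and ran up to 0.295 for Fcgr2b, and 0% of all genes passed 0.05 (3048 genes had an unadjusted p under 0.05, and DESeq2 called 0). At an unadjusted p under 0.05, 5 of the 6 genes were higher, all but Fcgr2b, against 13.2% of all genes. No gene of the 6 had all 5 mice above all 5 control mice, against 1.35% of all genes.

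In this WT combination, Fcgr4 was at 146, 108, 230, 140 and 603 CPM. Fcer1g was at 175, 172, 262, 159 and 634 CPM, against 142, 148, 180, 130 and 121 CPM in the controls. Fcgr1 was at 112, 99.5, 174, 120 and 349 CPM, against 90.7, 102, 108, 103 and 91.4 CPM in the controls. Replicate 5 was the highest in all 3 genes, replicate 3 the second highest, and replicate 2 lay within the range of the controls for Fcgr4, Fcer1g and Fcgr1. The exact 2-sided permutation test of mean log2 CPM gave p = 0.0238 for Fcgr4 and p = 0.0317 for both Fcer1g and Fcgr1, and p = 0.262 for Fcgr3, p = 0.484 for Fcgr2b and p = 0.73 for Fcgrt. These p-values are among 72 of such tests (6 genes in 12 comparisons of 2 groups), of which 15 gave p under 0.05, and are not adjusted.

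Replicate 5 of the WT combination decided much of these differences. Without it, the log2 fold change against the isotype control was 0.61 for Fcgr4, 0.41 for Fcer1g, 0.35 for Fcgr1, 0.13 for Fcgr3, -0.0099 for Fcgr2b and -0.08 for Fcgrt, and 0 of the 6 genes were higher at an unadjusted p under 0.05, against 2.81% of all genes. That tumor had the highest summed level of all 40 mice for the macrophage and monocyte markers (8457 CPM for 10 genes, against 1636 to 2568 CPM in controls), for T cell markers (267 CPM for 6 genes, against 21.2 to 63.9), for endothelial markers (463 CPM for 4 genes, against 82.5 to 114) and for Ptprc (782 CPM, against 107 to 176). It had the lowest sum of fibroblast markers. The part of these cells in its receptor levels was not tested.

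In tumors given anti-PD-1 FcS with anti-GARP:TGF-β1 FcD, the log2 fold changes against the isotype control were 0.95 ± 0.49 for Fcgr4, 0.72 ± 0.31 for Fcer1g, 0.57 ± 0.31 for Fcgr1, 0.54 ± 0.27 for Fcgr3, 0.33 ± 0.26 for Fcgrt and 0.31 ± 0.22 for Fcgr2b. The adjusted p in edgeR ran from 0.265 to 0.512, and 0% of all genes passed (2445 at an unadjusted p under 0.05, and 14 called by DESeq2). Only Fcer1g had an unadjusted p under 0.05, against 10.7% of all genes that were higher at that threshold. Fcgr4 was at 207, 108, 240, 211 and 215 CPM, and Fcer1g at 285, 178, 246, 242 and 238 CPM. For Fcgr4, Fcer1g, Fcgr1 and Fcgr3, 4 of the 5 mice stood above all controls, and replicate 2 lay among them. No gene had all 5 mice above the controls, where 1.96% of all genes did. The exact permutation test gave p = 0.0159 for Fcer1g, p = 0.0238 for Fcgr4 and for Fcgr3, and p = 0.0317 for Fcgr1. In a model of these 2 groups alone, Fcgr1, Fcgr4 and Fcer1g passed, with adjusted p of 0.0499, 0.0464 and 0.0456, as did 1.30% of all genes. Such models were also fitted for the other comparisons of 2 groups. None of the receptor genes passed in them, the WT and anti-TGF-β combinations against the isotype control included.

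With anti-TGF-β + anti-PD-1 FcS, the log2 fold changes were 0.81 ± 0.49 for Fcgr4, 0.62 ± 0.31 for Fcer1g, 0.52 ± 0.31 for Fcgr1, 0.41 ± 0.27 for Fcgr3, 0.35 ± 0.26 for Fcgrt and 0.18 ± 0.22 for Fcgr2b. The adjusted p in edgeR ran from 0.256 to 0.655, with 0% of all genes past 0.05 (137 called by DESeq2) and none of the 6 genes at an unadjusted p under 0.05, against 8.49% of all genes higher. Yet the groups did not overlap for 3 genes. Fcgr4 was at 235, 175, 152, 135 and 195 CPM, Fcgr1 at 186, 137, 119, 129 and 138 CPM, and Fcgr3 at 217, 171, 153, 154 and 157 CPM. In these 3 genes all 5 mice stood above all 5 controls, against 1.73% of all genes, and the exact permutation test gave its smallest possible p, 0.00794, for each. The controls for Fcgr3 were at 101, 133, 151, 109 and 148 CPM, close below the lowest treated mouse at 153 CPM. The model of all 40 mice estimates the spread of each gene from all groups together. In a model of only these 2 groups, none of the 6 genes passed an adjusted p of 0.05 either, and 8 of 13492 genes did.

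Inhibitory Fcgr2b differed least. It was at 168, 246, 221, 160 and 268 CPM in controls, at 212, 212, 243, 176 and 546 CPM in the WT combination, at 339, 243, 253, 221 and 257 CPM in the FcD combination and at 325, 250, 210, 212 and 205 CPM in the anti-TGF-β combination. Each combination overlapped the controls in at least 4 of its mice, and the highest value was again replicate 5 of the WT combination. Fcgrt was at 73.2, 78.8, 103, 71.3 and 78.8 CPM in controls and at 109, 100.4, 110, 96.1 and 102 CPM in the anti-TGF-β combination, where the exact permutation p was 0.0317. In the WT combination, 4 of the 5 Fcgrt levels lay between 62.0 and 98.9 CPM, below the highest control, and replicate 5 was at 295 CPM.

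**Figure D2:**
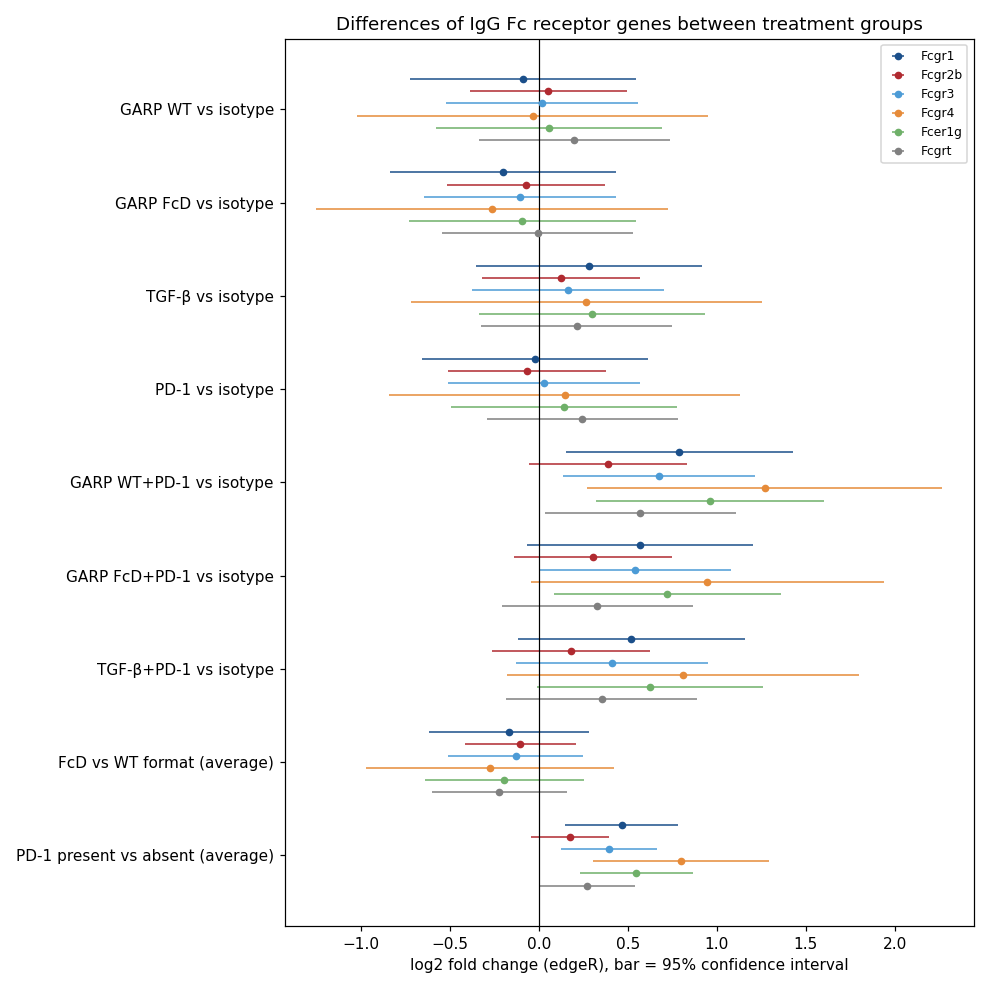
Log2 fold change of each gene (edgeR, x axis) in 9 comparisons (y axis), with 95% confidence intervals; the last 2 rows are averages over presence of anti-PD-1 FcS and over 4 partner backgrounds. Intervals of the single mAbs span 0 for all 6 genes, and points of the 3 combinations lie to the right of 0, with Fcgr4 farthest (1.27, 0.95 and 0.81) and Fcgr2b nearest.

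Adding a second mAb to anti-PD-1 FcS was compared with anti-PD-1 FcS alone, a group whose 5 tumors spread widely. With anti-GARP:TGF-β1 WT added, the log2 fold changes were 1.12 ± 0.49 for Fcgr4, 0.82 ± 0.31 for Fcer1g, 0.81 ± 0.31 for Fcgr1, 0.64 ± 0.27 for Fcgr3, 0.46 ± 0.22 for Fcgr2b and 0.33 ± 0.26 for Fcgrt. None passed an adjusted p of 0.05 (lowest 0.233, edgeR; 0% of all genes passed), and 5 of the 6 were higher at an unadjusted p under 0.05, against 11.2% of all genes. With FcD added, the values ran from 0.08 for Fcgrt to 0.80 for Fcgr4 (lowest adjusted p 0.458; 0% of all genes passed), and an unadjusted p under 0.05 was met by 0 of the 6, against 6.46% of all genes higher. With anti-TGF-β added, they ran from 0.11 for Fcgrt to 0.66 for Fcgr4 (lowest adjusted p 0.363; 0.00678% of all genes passed), and again 0 of 6 had an unadjusted p under 0.05, against 7.00% of all genes higher. The exact permutation p was 0.0317 for Fcgr2b and 0.0397 for Fcgr3 with FcD added, and at least 0.0873 for the other genes in these 3 comparisons. Leaving out replicate 2 with anti-PD-1 FcS alone, the mouse at 269 CPM of Fcgr4, brought Fcgr1, Fcgr4 and Fcer1g past the threshold with WT added, at adjusted p of 0.0414, 0.0447 and 0.0414, as it did 3.60% of all genes. Leaving out replicate 5 of the WT combination gave 0.47 for Fcgr4, 0.38 for Fcgr1, 0.27 for Fcer1g, 0.096 for Fcgr3, 0.058 for Fcgr2b and -0.33 for Fcgrt.

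The isotype control and anti-PD-1 FcS groups serve as control in several of these comparisons, which are thus not independent of each other. The 20 mice given anti-PD-1 FcS were also compared with the 20 mice not given it, averaged over the 4 partner backgrounds. All 6 genes were higher with anti-PD-1 FcS, by log2 fold changes of 0.80 ± 0.24 for Fcgr4, 0.55 ± 0.16 for Fcer1g, 0.47 ± 0.16 for Fcgr1, 0.39 ± 0.13 for Fcgr3, 0.27 ± 0.13 for Fcgrt and 0.17 ± 0.11 for Fcgr2b. The adjusted p in edgeR was 0.0587 for Fcer1g, 0.0668 for Fcgr4, 0.0829 for Fcgr1, 0.0839 for Fcgr3, 0.205 for Fcgrt and 0.33 for Fcgr2b, and 0.589% of all genes (87 of 14760) passed 0.05. At an unadjusted p under 0.05, 5 of the 6 genes were higher, against 13.3% of all genes. Without replicate 5 of the WT combination the log2 fold changes were 0.64 for Fcgr4, 0.41 for Fcer1g, 0.36 for Fcgr1, 0.26 for Fcgr3, 0.11 for Fcgrt and 0.075 for Fcgr2b, and 4 of the 6 were higher, against 9.29% of all genes. DESeq2's Wald test put Fcer1g (adjusted p 0.0222), Fcgr4 (0.034), Fcgr1 (0.0484) and Fcgr3 (0.0497) past the threshold, with 5.72% of all genes and with fold changes that hardly moved. Leaving out replicate 2 with anti-TGF-β alone also put these 4 genes past it, with 15.1% of all genes. Without replicate 5 of the WT combination, none of these 4 genes passed in edgeR, where 0.155% of all genes did, and each adjusted p was higher than with all mice. Whether these 4 genes pass the threshold thus depends on the test and on single mice.

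The 4 backgrounds were also set side by side. Mean log2 CPM of Fcgr4 differed by -0.42 where anti-PD-1 FcS was given in place of the isotype control, and was higher by 1.07, 1.35 and 0.68 where it was added to anti-GARP:TGF-β1 WT, to FcD and to anti-TGF-β. The -0.42 is a mean of logs that includes replicate 1 with anti-PD-1 FcS at 12.7 CPM, and edgeR's log2 fold change for the same 2 groups was 0.14 with all mice, 0.43 without that mouse and -0.47 without replicate 2 (269 CPM), so its sign is not settled. For Fcer1g the 4 differences were 0.02, 0.69, 0.85 and 0.43, in the same order, and for Fcgr1 they were -0.20, 0.73, 0.79 and 0.35. Differences between backgrounds were not tested. Within libraries 41 to 60 the averaged difference of mean log2 CPM was 0.23 for Fcgr4 and 0.34 for Fcer1g, and within libraries 61 to 80 it was 1.15 and 0.64. All 6 genes were higher with anti-PD-1 FcS in both library parts, Fcgr2b by 0.07 and 0.26.

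Fc-dead and Fc-active formats of the same anti-GARP:TGF-β1 clone were compared, which asks whether Fc binding by this mAb moved the receptor genes. None of the 6 genes passed in any of these comparisons, at the adjusted or the unadjusted threshold of 0.05 in edgeR, or in DESeq2. Few genes did at the unadjusted one. Of 14760 genes, they were 207 without anti-PD-1 FcS, 192 with it, 136 averaged over both and 264 for the difference between them. Without anti-PD-1 FcS, the log2 fold changes of FcD against WT ran from -0.23 for Fcgr4 to -0.11 for Fcgr1 (adjusted p 0.999 in edgeR, 0% of all genes past 0.05). With anti-PD-1 FcS they ran from -0.32 for Fcgr4 to -0.08 for Fcgr2b (adjusted p 1, 0% of all genes). Averaged over both, FcD minus WT was -0.28 for Fcgr4 (95% confidence interval -0.97 to 0.42), -0.22 for Fcgrt (-0.60 to 0.16), -0.19 for Fcer1g (-0.64 to 0.25), -0.17 for Fcgr1 (-0.62 to 0.28), -0.13 for Fcgr3 (-0.51 to 0.25) and -0.10 for Fcgr2b (-0.42 to 0.21), with 0% of all genes past the threshold. The intervals leave room for differences of up to about those bounds. The format effect did not differ detectably with and without anti-PD-1 FcS either (log2 differences of -0.11 to 0.04, adjusted p 1, 0% of all genes).

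The sign of the averaged format difference rested on a single tumor. Without replicate 5 of the WT combination it turned positive for all 6 genes, from 0.05 for Fcgr1 and Fcgr4 to 0.14 for Fcgr3. Without anti-PD-1 FcS, Fcgrt, the IgG-recycling receptor, was at 99.8, 87.5, 97.7, 83.2 and 96.8 CPM with WT and at 91.3, 80.1, 81.2, 69.7 and 81.3 CPM with FcD. There 4 of 5 FcD mice lay below all WT mice, and the exact permutation test gave p = 0.0476, unadjusted and 1 of the 72 tests. Within libraries 41 to 60, mean log2 CPM was higher with FcD for all 6 genes, by 0.03 to 0.16, and within libraries 61 to 80 it was lower for all 6, by -0.26 to -0.09.

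Across all 8 groups, the test for any difference gave adjusted p-values in edgeR from 0.144 for Fcer1g to 0.578 for Fcgrt, with 0.0271% of all genes past 0.05. At an unadjusted p under 0.05 there were 4 of the 6 genes (Fcgr1, Fcgr3, Fcgr4 and Fcer1g), against 24.7% of all genes. DESeq2's likelihood ratio test put Fcer1g past the threshold (adjusted p 0.0379), 1 of the 6 against 8.36% of all genes.

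The balance of activating to inhibitory receptors was described as the sum of Fcgr1, Fcgr3 and Fcgr4 divided by Fcgr2b, all in CPM per kilobase. It was 5.42 ± 0.945 (SD, n = 5) in isotype control tumors, 4.95 ± 0.457 with anti-GARP:TGF-β1 WT, 4.8 ± 1.09 with FcD, 5.58 ± 1.5 with anti-TGF-β and 5.60 ± 2.87 with anti-PD-1 FcS. It was 7.40 ± 1.51, 7.14 ± 1.54 and 7.15 ± 0.727 in the WT, FcD and anti-TGF-β combinations. Among the controls the ratio ran from 3.95 to 6.15, and in the anti-TGF-β combination from 6.70 to 8.43, without overlap. The WT combination (5.49 to 9.34) and the FcD combination (4.93 to 8.85) overlapped the controls, and anti-PD-1 FcS alone spanned nearly the whole scale, from 2.69 to 10.05. The tumor with the highest receptor levels, replicate 5 of the WT combination, had a ratio of 9.34, the highest of its group, next to 8.39 in replicate 3. Fcgr4 alone over Fcgr2b was 2.29 ± 0.569 in controls and 3.72 ± 1.06, 3.50 ± 1.04 and 3.44 ± 0.550 in the 3 combinations. The ratios were formed from the same levels as above, with sizes that depend on the exon lengths used, and were given no test.

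**Figure D3:**
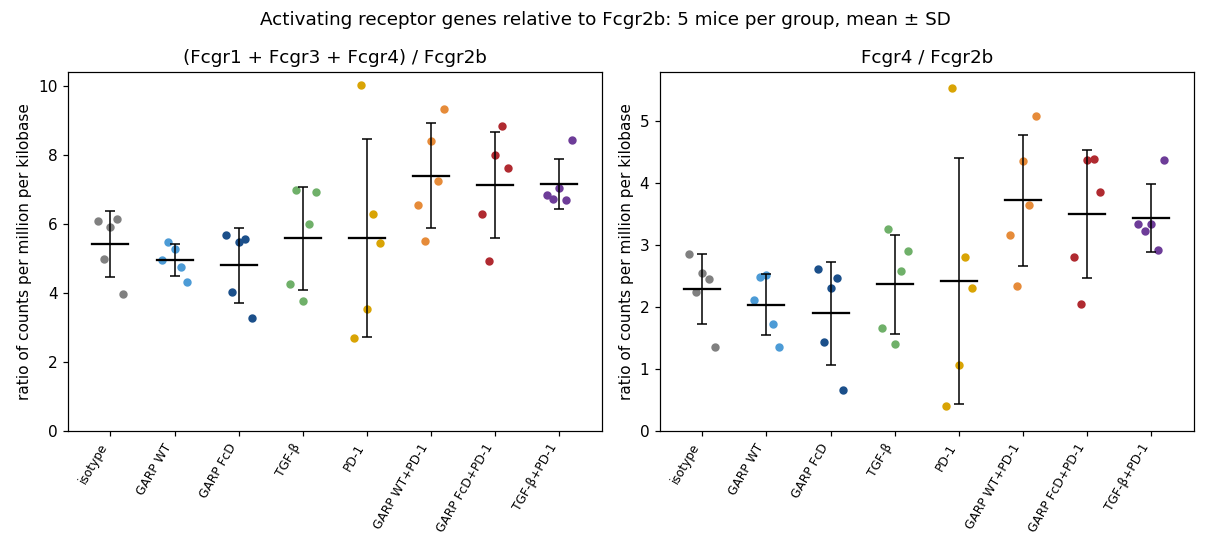
Activating receptor genes over Fcgr2b (left) and Fcgr4 over Fcgr2b (right), as ratios of CPM per kilobase on a linear axis from 0, in every tumor, with 5 mice per group and mean ± SD. The combinations average 7.40, 7.14 and 7.15 on the left against 5.42 in isotype controls, and the group given anti-PD-1 FcS alone spreads from 2.69 to 10.05.

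Over the 40 mice, the activating receptors and their γ chain were related with r of at least 0.84. Pearson's r of log2 CPM was 0.96 between Fcgr1 and Fcgr4, 0.95 between Fcgr1 and Fcer1g, 0.93 between Fcgr3 and Fcer1g and 0.92 between Fcgr4 and Fcer1g (Spearman's rho 0.94, 0.93, 0.87 and 0.96). Fcgr3 gave 0.90 with Fcgr1 and 0.84 with Fcgr4 (rho 0.83 and 0.86). Fcgr2b was nearest to Fcgr3, with which it shares some sequence (r 0.91, rho 0.79), and that r was above those of Fcgr3 with Fcgr1 and Fcgr4. It was farther from Fcgr4 (r 0.68, rho 0.59). Fcgrt was the least related, with r of 0.35 to Fcgr4, 0.46 to Fcgr1, 0.62 to Fcer1g and 0.71 to Fcgr2b and Fcgr3. These are descriptions over mice that share the tumor line and differ in leukocyte content (Ptprc from 59.9 to 782 CPM).

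The genes most like each receptor over the 40 mice, were taken as the 3 with the highest r among all genes tested. For Fcer1g they were Efhd2 (r 0.98), Tyrobp (0.98), an adaptor with the same kind of motif, and Lrrc25 (0.98). For Fcgr1 they were Themis2 (0.98), the lysosomal protease gene Ctss (0.98) and RP24-330M21.1 (0.97). For Fcgr4 they were Plbd1 (0.97), RP23-52N2.1 (0.97) and Slamf8 (0.97), and for Fcgr3 they included Tyrobp (0.95) and Pirb (0.95). Fcgr2b was nearest to the macrophage lysozyme Lyz2 (0.91), Fcgr3 (0.91) and Pik3r6 (0.87), and Fcgrt to Apoe (0.89), Ctla2a (0.87) and the lysosomal membrane gene Lamp1 (0.87).

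Relations were tested with Ptprc for leukocyte content and Csf1r for macrophages (100000 permutations each, adjusted over the 18 relations computed, of which these are 12). Fcγ receptors are carried by leukocytes, so positive relations in bulk RNA were likely before any test, and the p-values add little to r. The permutations moved mice freely across groups. With Ptprc, r was 0.90 for Fcgr1 (rho 0.79), 0.86 for Fcer1g (rho 0.71), 0.84 for Fcgr4 (rho 0.76), 0.83 for Fcgr3 (rho 0.63) and 0.71 for Fcgr2b (rho 0.49). The permutation p of r was 1e-05 for the first 4 genes, the smallest that these permutations can give (adjusted p 1.5e-05), and 2e-05 for Fcgr2b (adjusted p 2.8e-05). The permutation p of rho was 1e-05 for the same 4 genes (adjusted p 1.8e-05) and 0.0019 for Fcgr2b (adjusted p 0.0024). Without the 2 mice farthest from the median of Ptprc, r was 0.86, 0.77, 0.81, 0.72 and 0.50 in the same order. Fcgrt gave r of 0.46 (permutation p = 0.0064, adjusted p 0.0072) and rho of 0.09 (permutation p = 0.59, adjusted p 0.59), and without those 2 mice r was -0.03, so its relation rests on them.

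With Csf1r, r ran from 0.65 for Fcgrt to 0.86 for Fcgr3, and rho from 0.39 to 0.70 in the same genes and Fcgr1. The adjusted permutation p was at most 0.00013 for r and 0.015 for rho, and without the 2 farthest mice r fell to 0.27 for Fcgrt and stayed at 0.57 to 0.74 for the others. Fcgr4 had the lowest r with Csf1r among the 5 Fcγ receptor genes and chain (0.68, rho 0.58). Within libraries 41 to 60 and 61 to 80, r between Fcgr4 and Csf1r was 0.69 and 0.67, and over the 6 genes r with Csf1r stayed between 0.56 and 0.87. With group means removed, r of Fcgr4 was 0.83 with Ptprc and 0.64 with Csf1r. Within the parts r with Ptprc stayed between 0.72 and 0.92 for all genes but Fcgrt (0.24 and 0.59).

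**Figure D4:**
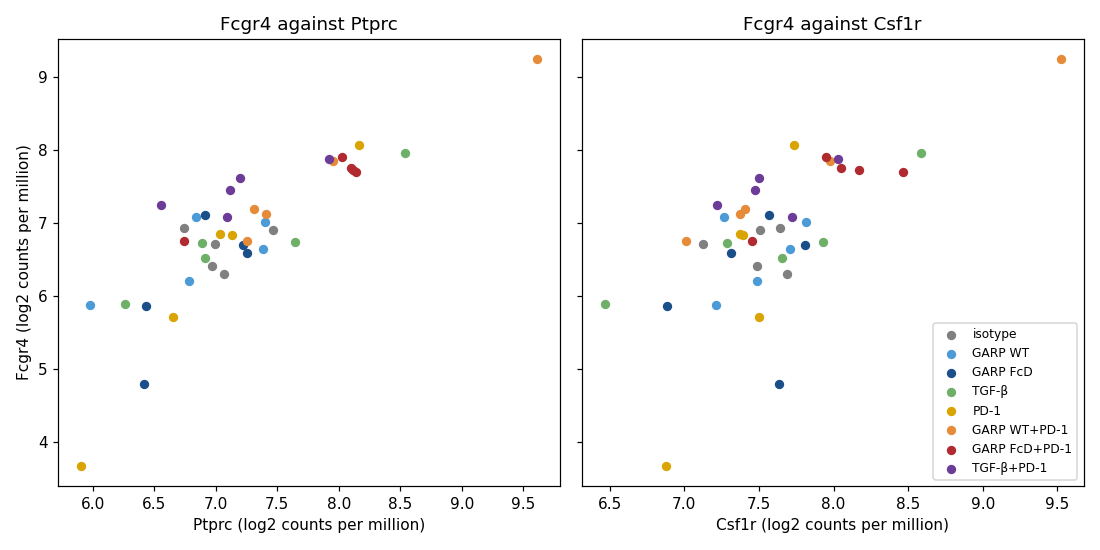
Fcgr4 (y axis, log2 CPM) against Ptprc and Csf1r (x axes, log2 CPM) in the 40 tumors, colored by group, with group names shortened as in the plot of levels. The points rise together with r of 0.84 and 0.68, and the tumor at the top is replicate 5 of the group given anti-PD-1 FcS with anti-GARP:TGF-β1 WT.

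Genes that act with the receptors were followed as lists. Downstream of the activating receptors, 22 genes of the ITAM pathway were tested, and 0 passed an adjusted p of 0.05 in any comparison with the isotype control (edgeR). At an unadjusted p under 0.05, 18 of 22 were higher in the WT combination, 8 in the FcD combination and 0 in the anti-TGF-β combination, where 1, Plcg1, was lower, against 13.2%, 10.7% and 8.49% of all genes higher. In the WT combination the summed level of these genes had a median of 1100 CPM and reached 4071 CPM in replicate 5, against 920.1 to 1046 CPM in controls, and without that mouse 0 of 22 were higher, against 2.81% of all genes. Median log2 fold changes were 0.84, 0.58 and 0.36, against 0.01, -0.0040 and 0.02 over all genes tested. Without replicate 5, the median in the WT combination was 0.27. Syk, the kinase bound by the γ chain, differed by 1.31 ± 0.39 (SE), 0.85 ± 0.39 and 0.28 ± 0.39 in the 3 combinations (adjusted p 0.159, 0.278 and 0.705 in edgeR). The adaptor Tyrobp differed by 0.93 ± 0.31, 0.72 ± 0.31 and 0.58 ± 0.31, and the exchange factors Vav1 and Vav3 by 1.07 ± 0.35 and 1.20 ± 0.36 in the WT combination. With anti-PD-1 FcS present against absent, 16 of 22 were higher at an unadjusted p under 0.05, against 13.3% of all genes, and 0 passed the adjusted threshold. They were 14 of 22 without replicate 5 of the WT combination, against 9.29% of all genes.

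Of the 8 phosphatases and adaptors that act downstream of Fcgr2b, 4, 3 and 1 were higher at an unadjusted p under 0.05 in the WT, FcD and anti-TGF-β combinations, against 13.2%, 10.7% and 8.49% of all genes, with medians of 0.45, 0.36 and 0.22, and 0 passed the adjusted threshold. When replicate 5 of the WT combination was left out, 0 of 8 were higher there, against 2.81% of all genes, and the median was 0.15. Inpp5d, the phosphatase recruited by Fcgr2b, differed by 0.87 ± 0.32, 0.67 ± 0.31 and 0.33 ± 0.31, and Ptpn6 by 0.83 ± 0.31, 0.65 ± 0.31 and 0.40 ± 0.31. Dok2 and Inppl1 differed by 0.45 ± 0.22 and 0.29 ± 0.12 in the WT combination. Among 4 subunits of the phagocyte NADPH oxidase, 2, 2 and 2 were higher in this way, and Cybb differed by 1.05 ± 0.41, 0.95 ± 0.41 and 0.34 ± 0.40. With anti-PD-1 FcS present against absent, these 4 were higher at an unadjusted p under 0.05, against 13.3% of all genes, and 0 at the adjusted one. Without replicate 5 of the WT combination, 0 of 4 were higher in that combination and 3 of 4 with anti-PD-1 FcS present, against 2.81% and 9.29% of all genes.

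Other Fc receptors and IgG-binding proteins gave 13 tested genes of 15. Fcamr was at 0 in 36 mice and Pigr in 24, and these 2 were not tested. At an unadjusted p under 0.05, 5, 3 and 3 of 13 were higher in the 3 combinations, against 13.2%, 10.7% and 8.49% of all genes, and 2 of 13 in the WT combination without its replicate 5, against 2.81%. With anti-PD-1 FcS present against absent, Fcer1a, the IgE-binding chain of the high-affinity IgE receptor, was higher by 1.00 ± 0.23 and passed (adjusted p 0.0498, edgeR), the only one of the 13, against 0.589% of all genes. Its partner Ms4a2, the β chain, differed by 1.02 ± 0.30 (adjusted p 0.0619). Both need Fcer1g to reach the surface of mast cells. Fcer1a differed by 1.65 ± 0.47, 1.22 ± 0.47 and 0.78 ± 0.47 in the 3 combinations against the isotype control, and Ms4a2 by 2.15 ± 0.60, 1.63 ± 0.60 and 0.77 ± 0.61. Mast cell markers moved with them: 2 of 5, Cma1 (0.98 ± 0.23) and Tpsb2 (1.01 ± 0.24), passed with anti-PD-1 FcS present (adjusted p 0.0498 for both), with summed levels of 33.1 to 94.9 CPM in isotype controls and 114 to 422 CPM in the WT combination. The sums overlapped the controls in the FcD combination (77.5 to 191 CPM), the anti-TGF-β combination (65.5 to 260.2 CPM) and with anti-PD-1 FcS alone (45.5 to 316 CPM). With anti-PD-1 FcS present, 0 of 5 mast cell markers and 0 of the 13 genes passed the adjusted threshold once replicate 5 of the WT combination was left out (0.155% of all genes did), while 5 of 5 mast cell markers stayed higher at an unadjusted p under 0.05 (median 0.84, or 0.96 with that mouse), against 9.29% of all genes. The part of mast cells in the level of Fcer1g was not tested.

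Of 13 interferon-γ response genes, 6, 9 and 6 were higher at an unadjusted p under 0.05 in the WT, FcD and anti-TGF-β combinations, against 13.2%, 10.7% and 8.49% of all genes, with medians of 0.70, 0.74 and 0.60, and 0 passed the adjusted threshold. With anti-PD-1 FcS present against absent, 12 of 13 were higher at an unadjusted p under 0.05, against 13.3% of all genes, and 3 passed, against 0.589%: Nos2, the inducible nitric oxide synthase (1.44 ± 0.27, adjusted p 0.0288), Cd274, the PD-1 ligand (0.91 ± 0.20, adjusted p 0.0477), and Ifng itself (1.00 ± 0.24, adjusted p 0.0498). Without replicate 5 of the WT combination, 4 of 13 were higher in that combination, and with anti-PD-1 FcS present 11 were higher and 1 passed, against 2.81%, 9.29% and 0.155% of all genes. Cxcl10 differed by 0.34 ± 0.12. Of 6 tested IL-4 and IL-13 response genes, 4, 4 and 2 were higher at an unadjusted p under 0.05 in the combinations, against 13.2%, 10.7% and 8.49% of all genes, and 1 of 6 in the WT combination without its replicate 5 (median 0.51, or 0.88 with it), against 2.81%. Chil3 differed by 1.66 ± 0.58, 1.6 ± 0.58 and 2.52 ± 0.57, and Il4ra by 0.63 ± 0.22, 0.65 ± 0.22 and 0.49 ± 0.22, and 0 of the 6 passed the adjusted threshold.

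Markers of cells that carry these receptors were set beside them. All counts of markers that follow are at an unadjusted p under 0.05 in the WT, FcD and anti-TGF-β combinations, where 13.2%, 10.7% and 8.49% of all genes were higher. Of 10 macrophage and monocyte markers, 8, 6 and 1 were higher (1 of 10 in the WT combination without its replicate 5, against 2.81% of all genes), with medians of 0.78, 0.65 and 0.28, and the receptor genes had medians of 0.73, 0.55 and 0.46. Without that mouse, the medians in the WT combination were 0.20 for these markers and 0.24 for the receptor genes. Adgre1 differed by 1.54 ± 0.52, 1.05 ± 0.51 and 0.21 ± 0.51, and Mertk by 1.35 ± 0.41, 1.16 ± 0.41 and 0.40 ± 0.41. The summed macrophage level ran from 1636 to 2568 CPM in controls and from 1809 to 8457, 2648 to 4453 and 2286 to 3467 CPM in the combinations. Of 5 tested neutrophil markers 2, 3 and 3 were higher, with sums of at most 64.4 CPM in controls and at most 182 CPM in the combinations. With anti-TGF-β alone 4 of 5 were higher, against 1.77% of all genes, with a median of 1.71 and sums of up to 274 CPM. The median of those sums was 37.6 CPM, within the range of the controls. Of 5 tested NK cell markers 2, 0 and 3 were higher; Gzma passed with anti-PD-1 FcS present (0.75 ± 0.17, adjusted p 0.0482), 1 of 5 against 0.589% of all genes, and 0 of 5 did without replicate 5 of the WT combination, against 0.155%. Of 5 dendritic cell markers 3, 4 and 0 were higher.

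B cell markers, whose cells carry Fcgr2b alone, gave 0, 0 and 5 of 5 higher at an unadjusted p under 0.05, with sums of at most 5.16 CPM in controls and up to 28.5, 13.8 and 91.3 CPM in the combinations. In the anti-TGF-β combination the median sum was 5.22 CPM, and sums reached 29.4 to 43.4 CPM in the groups given 1 mAb. T cell markers gave 1 of 6 in each combination, and Ptprc differed by 1.17 ± 0.42, 0.84 ± 0.42 and 0.18 ± 0.42. In the WT combination without its replicate 5, Ptprc differed by 0.44 and was not higher at an unadjusted p under 0.05, against 2.81% of all genes. Among cells that lack most Fcγ receptors, 3, 0 and 0 of 4 endothelial markers were higher, 0, 1 and 0 of 5 fibroblast markers, 1, 4 and 0 of 6 tested epithelial markers (1 was lower in the FcD combination), 0 of 4 tested muscle markers in each, and 0, 4 and 0 of 4 adipocyte markers. Adipocyte sums ran from 27.3 to 113 CPM in controls and reached 675 CPM in the FcD combination, 756 CPM with anti-TGF-β alone and 495 CPM with anti-PD-1 FcS alone. None of the marker genes passed the adjusted threshold in these 3 comparisons. Without replicate 5 of the WT combination, 5 of 5 mast cell markers and 1 of 5 neutrophil markers were higher in that combination, and 0 of the NK, dendritic, B, T and endothelial cell markers, against 2.81% of all genes. The part of any of these cells in the receptor levels was not tested.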

How the data were processed

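Tumor RNA of 40 mice (8 groups of 5) was sequenced as stranded mRNA libraries with paired-end reads of 100 bases. The deposited values are raw read counts per gene, which per the submitters' processing notes involved STAR 2.5.3a, SAMtools 1.6, HTSeq 0.9.1 and GRCm38; the deposited counts are not normalized. Groups came from the sample labels, and unused columns of per-sample values numbered 0. Total counts per tumor ran from 11931730 to 20680548 (median 14030511).

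Of 54087 genes, the 14760 that passed edgeR's filterByExpr were tested in 1 model of all 40 mice with edgeR's quasi-likelihood test (TMM scaling, robust estimate of the spread, Benjamini-Hochberg adjustment over all genes tested, threshold 0.05). CPM are TMM-scaled, and log2 CPM use a prior count of 2. Single genes were also compared with the exact 2-sided permutation test of mean log2 CPM (252 divisions of 10 mice, smallest p 0.00794). SE is the log2 fold change divided by the root of the F statistic. Levels per kilobase used exon lengths of GENCODE vM21, and upstream sequences came from RefSeq (GRCm38.p6), in which all 6 genes were found. The scripts were tested on simulated data. All 6 genes are named throughout, with genes of fixed pathway and marker lists and, for each of the 6, the 3 genes with the highest correlation. The 6 genes follow from their symbols, and no measured value enters that rule, but they and the lists were chosen as subjects with earlier results of these data known. Some genes of these lists and relations are not reported here, and counts leave them out. Labels do not pair mice across groups, and p-values measure the spread between mice. Versions were R 4.3.3, edgeR 4.0.16, DESeq2 1.42.0, limma 3.58.1, Python 3.11.15, NumPy 2.4.6, SciPy 1.17.1, pandas 2.3.3 and matplotlib 3.10.9.

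The alternatives tried were size factors from DESeq2 in place of TMM, testing every gene with a count, DESeq2's own tests, only the groups compared, the library part (numbers 41 to 60 against 61 to 80) as a covariate, an estimate of the spread that is not robust, and leaving out each mouse in turn. Counts of listed genes without replicate 5 of the WT combination were added after seeing the data.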

Additional observations from a re-analysis of the deposited data

Results flagged for a closer look

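Among 64 checks of a group of 5 mice (48 of gene levels, the others of ratios between genes), 14 had a mouse whose gap to the nearest other mouse was large against the range of its group (Dixon's 95% limit), 12 of them in gene levels. Chance flags about 1 in 20 groups. Replicate 5 given anti-PD-1 FcS with anti-GARP:TGF-β1 WT accounts for 5 of them, at 546.5 CPM for Fcgr2b, 463.3 CPM for Fcgr3, 603.3 CPM for Fcgr4, 634 CPM for Fcer1g and 295.1 CPM for Fcgrt, each the highest of its group. In the group given anti-TGF-β + anti-PD-1 FcS, replicate 1 was the highest for Fcgr1 (186.2 CPM) and Fcgr3 (216.6 CPM), and replicate 5 for the ratio of activating receptors to Fcgr2b (8.426) and of Fcgr4 to Fcgr2b (4.376). With anti-TGF-β alone, replicate 2 was the highest for Fcgr3 (248.9 CPM) and Fcgr4 (248.4 CPM). With anti-PD-1 FcS alone, replicate 2 was the highest for Fcer1g (300.7 CPM). Among isotype controls, replicate 3 was the highest for Fcgrt (103.2 CPM). In the group given anti-PD-1 FcS with anti-GARP:TGF-β1 FcD, replicate 2 was the lowest for Fcgr4 (107.7 CPM).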

How the results depend on the processing

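No paired analysis was possible because the mice of different groups are different animals, and their replicate numbers follow the order of the samples and pair nothing. Of 2004 values of the 6 genes under alternatives, 1440 left out 1 mouse. Of those 1440, 1342 kept direction and side of the threshold, 21 newly passed it and 77 turned direction; of the others, 553 kept both, 8 newly passed and 3 turned. No turned value passed an adjusted p of 0.05. The 3 were Fcgrt with FcD against isotype control without a filter on low counts (0.0012) and the difference between formats with and without anti-PD-1 FcS with the library part as covariate, for Fcgr2b (-0.022) and Fcgr3 (0.0080).

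Log2 fold changes that turned when 1 mouse was left out are given by their lowest and highest values. With anti-GARP:TGF-β1 WT against isotype the ranges were Fcgr2b -0.034 to 0.15, Fcgr3 -0.058 to 0.080, Fcgr4 -0.18 to 0.10 and Fcer1g -0.016 to 0.15. With FcD against isotype the ranges were Fcgr2b -0.15 to 0.027, Fcer1g -0.27 to 0.022 and Fcgrt -0.058 to 0.094. With anti-TGF-β against isotype the ranges were Fcgr1 -0.023 to 0.45, Fcgr2b -0.076 to 0.22, Fcgr3 -0.13 to 0.26, Fcgr4 -0.16 to 0.43, Fcer1g -0.039 to 0.44 and Fcgrt -0.027 to 0.31. With anti-PD-1 FcS against isotype the ranges were Fcgr1 -0.37 to 0.18, Fcgr2b -0.15 to 0.030, Fcgr3 -0.11 to 0.17, Fcgr4 -0.47 to 0.43 and Fcer1g -0.22 to 0.30. With the WT combination against isotype the ranges were Fcgr2b -0.0099 to 0.51 and Fcgrt -0.082 to 0.73. With WT added to anti-PD-1 FcS the range was Fcgrt -0.33 to 0.49. With FcD added to anti-PD-1 FcS the range was Fcgrt -0.014 to 0.22. Between formats with anti-PD-1 FcS the ranges were Fcgr1 -0.37 to 0.21, Fcgr2b -0.21 to 0.32, Fcgr3 -0.30 to 0.41, Fcgr4 -0.52 to 0.33, Fcer1g -0.39 to 0.31 and Fcgrt -0.41 to 0.41. Between formats on average the ranges were Fcgr1 -0.24 to 0.050, Fcgr2b -0.17 to 0.095, Fcgr3 -0.21 to 0.14, Fcgr4 -0.40 to 0.051, Fcer1g -0.28 to 0.079 and Fcgrt -0.30 to 0.10. For the difference between formats with and without anti-PD-1 FcS the ranges were Fcgr1 -0.26 to 0.33, Fcgr2b -0.090 to 0.44, Fcgr3 -0.18 to 0.54, Fcgr4 -0.32 to 0.56, Fcer1g -0.25 to 0.45 and Fcgrt -0.21 to 0.61.

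The count of all genes past the threshold also moved widely with the processing. DESeq2's tests called 1 gene with anti-GARP:TGF-β1 WT, with anti-TGF-β and with anti-PD-1 FcS against isotype control, 14 for the FcD combination against isotype control, 137 for anti-TGF-β + anti-PD-1 FcS, 78 for anti-TGF-β added to anti-PD-1 FcS, 888 with anti-PD-1 FcS present against absent and 1297 across the 8 groups. With the library part as covariate the counts were 17 for the FcD combination, 385 for anti-PD-1 FcS present and 35 across the 8 groups. With only the groups compared they were 177 for the FcD combination, 8 for the anti-TGF-β combination and 0 for anti-TGF-β added to anti-PD-1 FcS. DESeq2's size factors gave 39 for anti-PD-1 FcS present, and no filter gave 0, and 9 across the 8 groups. Leaving out 1 mouse gave 0 to 538 genes with WT added to anti-PD-1 FcS (highest without anti-PD-1 FcS replicate 2), 0 to 2006 with the anti-TGF-β combination against isotype and 0 to 1734 against anti-PD-1 FcS (both highest without its replicate 1), 0 to 2243 for anti-PD-1 FcS present (highest without anti-TGF-β replicate 2) and 0 to 2288 across the 8 groups (highest without replicate 1 of the anti-TGF-β combination). The cause was not tested. With anti-PD-1 FcS present against absent, leaving out anti-TGF-β replicate 2 brought Fcgr1, Fcgr3, Fcgr4 and Fcer1g past the threshold (adjusted p 0.0177, 0.0152, 0.0144 and 0.009), and leaving out replicate 5 of the WT combination gave 0.169, 0.161, 0.13 and 0.104.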
